A study of Homo sapiens with 18 samples.

Results

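Matrix metalloproteinases (MMPs) and their tissue inhibitors (TIMPs) were followed through 10 genes, MMP1, MMP2, MMP10, MMP13, MMP14, MMP16, TIMP1, TIMP2, TIMP3 and TIMP4. Every probe set that the annotation assigns to 1 of these symbols alone was taken, which gave 24 of the 54675 probe sets of the Affymetrix U133 Plus 2.0 array and 10 of the 19775 genes named on it. The cells were SKOV-3, an established line from a human ovarian carcinoma, and each of the 18 arrays held RNA of 1 culture. The cells under study were LHR+, stably transfected to express the luteinizing hormone receptor (LHR), and they were measured without hormone and after 1, 4, 8 and 20 h with luteinizing hormone (LH) at 50 ng/ml (LH1, LH4, LH8 and LH20). The controls were LHR- cells, which the paper calls the parent line in its methods and mock-transfected elsewhere, so that effects of the receptor cannot be told apart from those of transfection and selection. Each of the 6 groups had 3 arrays, and because LHR+ cells without LH were collected as a single group, time in culture and LH cannot be told apart either. Whether the LHR+ line is 1 clone or a pool is not given in the sources used here.

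MMPs are zinc-dependent proteases that cut proteins of the extracellular matrix and of the cell surface. Most are secreted as inactive proenzymes, some are anchored in the plasma membrane, and the inhibitors TIMP1 to TIMP4 bind to the active site of the mature enzymes. In carcinoma they are known for their part in breaking down the basement membrane and interstitial collagen, and mRNA levels such as those measured here say nothing about how much of the enzyme is activated or inhibited. LHR is a receptor that couples mainly to the stimulatory G protein and raises cyclic AMP.

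Intensities are the authors' linear values, and differences are given as log2 fold changes of (intensity + 1). A probe set was called where limma gave p under 0.05 and an adjusted p (Benjamini-Hochberg over all probe sets) under 0.1, the fold change was at least 2, and all 3 arrays of one group lay above all 3 of the other. The arrays were close in scale, with median intensities of 46.9 to 57.9. The probe set of the endogenous LHR gene, LHCGR 207240_s_at, lay between 0.344 and 1.57 in LHR+ cells and between 0.383 and 0.978 in LHR- cells and was not called (log2 fold change 0.15, adjusted p = 0.885), and whether it can detect the transfected cDNA is not known, so it does not check the labels. Of 10 epithelial and ovarian carcinoma markers, 9 had a mean above that of the median probe set, the exception being MUC16. Leukocyte and endothelial markers (PTPRC, CD3D, CD14, PECAM1, CDH5 and VWF) all lay below it, while 4 genes listed as fibroblast markers (COL1A1, LUM, DCN and PDGFRB) lay above it. The summed intensity of all 10 measured markers of other cells was 12417 to 13473 in LHR+ cells without LH, 12708 to 14736 at 1 h of LH, 13968 to 14517 at 4 h, 14723 to 16506 at 8 h and 15783 to 17386 at 20 h, against 22011 to 22784 in LHR- cells. That of the epithelial markers was 44018 to 46379 in LH20, 29850.3 to 32319 in LHR+ and 30797 to 34829 in LHR- cells. Their part in the results below was not tested.

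The genes differ in the sequence before their start sites, which is shown here for 3 members. These are MMP10, which was called higher after 20 h of LH, TIMP1, which was not called in any comparison, and TIMP3, the member most reduced in LHR+ cells. TIMP1 was also higher at 20 h, by 0.32 on the log2 scale, short of the fold threshold. The promoter table from RefSeq (GRCh38.p14) matched 5 of the 10 members, MMP10, MMP14, TIMP1, TIMP3 and TIMP4. The 150 bases before the start were searched on both strands for 4 motifs, the AP-1 site TGANTCA, the cyclic AMP response element TGACGTCA, the TATA box TATAAA and the GC box GGGCGG. N stands for any base. Sites that depart from these letters were not counted, so a window without a match may still hold such a site. Capitals mark the matches, in the direction of the gene, and a match on the other strand reads as CCGCCC.
MMP10, chr11:102780629-102780778, minus strand: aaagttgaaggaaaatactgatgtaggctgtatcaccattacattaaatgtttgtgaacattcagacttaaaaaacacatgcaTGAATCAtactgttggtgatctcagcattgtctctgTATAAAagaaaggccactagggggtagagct
TIMP1, chrX:47582286-47582435, plus strand: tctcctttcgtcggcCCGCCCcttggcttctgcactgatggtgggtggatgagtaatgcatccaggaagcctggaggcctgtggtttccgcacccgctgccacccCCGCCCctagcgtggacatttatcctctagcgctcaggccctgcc
TIMP3, chr22:32801555-32801704, plus strand: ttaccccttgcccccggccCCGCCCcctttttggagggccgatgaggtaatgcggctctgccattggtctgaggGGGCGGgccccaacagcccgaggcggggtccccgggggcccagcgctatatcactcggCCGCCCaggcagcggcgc
The MMP10 window had 36.7% G and C. It held TGAATCA, a match to this AP-1 pattern, with its first base at -67, and a TATA box at -31. The TIMP1 window had 63.3% G and C with GC boxes at -135 and -45, and the TIMP3 window had 72.7% with GC boxes at -131, -76 and -18. None of the matches overlapped another. Over the 35116 promoters of the table, windows of this length held the AP-1 site in 4.17%, the cyclic AMP response element in 1.4%, the TATA box in 6.71% and the GC box in 36.8%. MMP14 and TIMP4 each had a GC box, at -66 and -57, and these letters of the cyclic AMP response element were in none of the 5 windows. A match is a description of the sequence and does not show that a factor binds there.

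LHR expression in the absence of LH was accompanied by lower intensities of the collagenases MMP1 and MMP13, the gelatinase MMP2 and TIMP3. In LHR+/LHR-, 7 of the 24 member probe sets were called, all lower in LHR+ cells, against 3.36% of all probe sets in either direction and 1.51% in the lower direction. These 7 belonged to MMP1, MMP2, MMP13 and TIMP3, and all 4 probe sets of TIMP3 were among them. The members were chosen with earlier results of these data known, so counts here and under LH describe the list and do not test it. The median log2 fold change of the member probe sets was -0.50, against 0.02 over all probe sets. In 10 of the 24 the 3 arrays of LHR+ cells did not overlap with those of LHR- cells, where 24.3% of all probe sets did not overlap. In RNA of whole cultures, fewer cells that express a gene and less RNA per cell cannot be told apart.

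Under LH the direction of the called members was the opposite. Their calls fell at 20 h, which was also the time with the most calls over all probe sets. No member probe set was called after 1, 4 or 8 h, against 0.481%, 1.89% and 1.52% of all probe sets, and at an unadjusted p under 0.05 alone there were 3 members at 1 h, 7 at 4 h and 9 at 8 h of 24, where 7.08%, 14.9% and 15.8% of all probe sets had such a p. After 20 h, 3 member probe sets were called, of MMP10, MMP13 and MMP16, all higher in LH20 than in LHR+ cells, against 7.06% of all probe sets in either direction and 3.64% in the higher direction. The 3 called probe sets were 12.5% of the members. Members whose arrays did not overlap with LHR+ cells numbered 3 in LH1, 9 in LH4, 8 in LH8 and 14 in LH20, where 13.1%, 22.4%, 21.8% and 35.2% of all probe sets did not. The median log2 fold change of the members was 0.04, 0.16, 0.06 and 0.31 in LH1, LH4, LH8 and LH20, where that of all probe sets was 0.02, 0.01, -0.03 and 0.00. LHR+/LHR- and LH20/LHR+ share the LHR+ arrays, so the opposite directions of the calls are not independent of each other.

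**Figure D1:**
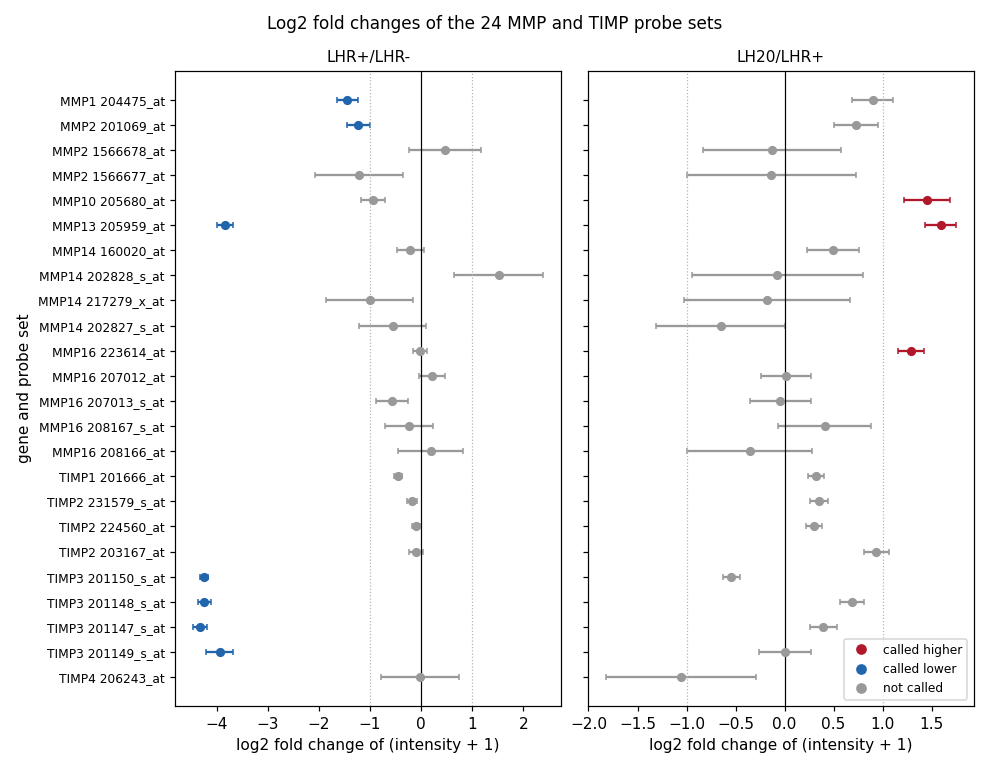
Log2 fold change of (intensity + 1) with its standard error for each of the 24 member probe sets in LHR+/LHR- (left) and LH20/LHR+ (right), with dotted lines at a fold of 2. In LHR+/LHR- the 7 called probe sets all lie left of 0, and in LH20/LHR+ the 3 called ones, MMP10, MMP13 and MMP16, lie right of it.

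MMP13, collagenase-3, cleaves fibrillar collagens and had the largest log2 fold change of the 6 metalloproteinases in LHR+/LHR-. Its intensities were 255, 269 and 202 in LHR+ cells and 3547, 3272 and 3502 in LHR- cells, a 14.3-fold difference (log2 fold change -3.83 ± 0.16 SE, limma adjusted p = 4.19e-09). The lowest LHR- array was thus far above the highest LHR+ array. The arrays read 204, 212 and 158 at 1 h of LH and 282, 275 and 201 at 4 h, both overlapping with LHR+ cells (log2 fold changes -0.34 and 0.06, adjusted p = 0.707 and 0.929). At 8 h they read 144, 156 and 138, all below the LHR+ arrays, with a log2 fold change of -0.72 ± 0.16 (adjusted p = 0.0222) that did not reach a fold of 2. At 20 h they read 667, 801 and 712, above every array of the earlier times, and MMP13 had risen 3.01-fold against LHR+ cells (log2 fold change 1.59 ± 0.16, adjusted p = 1.04e-05). LH20 cells still had less MMP13 than LHR- cells, by 4.74-fold (log2 fold change -2.24 ± 0.16, adjusted p = 2.93e-07).

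MMP1, the interstitial collagenase, opens the triple helix of collagens I to III and lies beside MMP10 in the MMP cluster on chromosome 11. In the order of the gene table the cluster runs MMP7, MMP20, MMP27, MMP8, MMP10, MMP1, MMP3, MMP12 and MMP13. The intensities of MMP1 were 2129, 2242 and 1647 in LHR+ cells and 4962, 4936 and 6451 in LHR- cells, with no overlap (log2 fold change -1.44 ± 0.21, adjusted p = 0.000699). They averaged 1658 ± 346 in LH1, 1367 ± 244 in LH4 and 2049.8 ± 469 in LH8 cells (SD, n = 3 each), and none of these was called against LHR+ cells, which averaged 2006 ± 316. At 4 h the arrays read 1482, 1531 and 1087, all below the lowest LHR+ array (log2 fold change -0.56 ± 0.21, limma adjusted p = 0.200). All 3 LH8 arrays lay above the LH4 arrays (0.58, adjusted p = 0.206). The 3 arrays at 20 h read 3408, 3728 and 4006, above every LHR+ array and below every LHR- array. The difference in LH20/LHR+ was 1.86-fold (log2 fold change 0.90, 95% interval 0.45 to 1.35, adjusted p = 0.00756) and stayed short of the fold threshold. In LH20/LH8 the log2 fold change was 0.88, and without the first LH8 array it was 1.06 and the probe set was called.

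MMP10, stromelysin-2, degrades proteoglycans and fibronectin and can activate procollagenases. Its intensities in LHR+ cells were 1055, 818 and 617, and in LHR- cells 1381, 1744 and 1580.0, so the groups did not overlap. The log2 fold change of -0.95 ± 0.24 (adjusted p = 0.0257) was a fold of 1.93 and was not called, but without the first LHR+ array it was -1.14 and without the first LHR- array -1.03, and MMP10 was then called. At 1 h the 3 arrays read 482, 543 and 406, all below the lowest LHR+ array, though the adjusted p was 0.314 (log2 fold change -0.77 ± 0.24). Intensities of 719, 655 and 486 at 4 h and of 736, 423 and 454 at 8 h overlapped with LHR+ cells (adjusted p = 0.485 and 0.187). At 20 h the intensities were 2025, 2229 and 2424, the highest of all 6 groups, and MMP10 had risen 2.74-fold against LHR+ cells (log2 fold change 1.45 ± 0.24, adjusted p = 0.000605). All 3 LH20 arrays also lay above the 3 LHR- arrays, but the difference of 0.51 on the log2 scale did not pass the test (95% interval -0.00 to 1.02, adjusted p = 0.161).

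The rise of MMP10 and MMP13 lay between 8 and 20 h. Against LH8 cells, LH20 cells had 4.26-fold more MMP10 (log2 fold change 2.09 ± 0.24, adjusted p = 8.38e-05) and 4.94-fold more MMP13 (2.31 ± 0.16, adjusted p = 1.71e-06). These were the 2 member probe sets called in LH20/LH8, where 4.27% of all probe sets were called and 2.25% were higher in LH20, and no member was called in LH4/LH1 or LH8/LH4, where 1.52% and 1.17% were. MMP13 was lower in LH8 than in LH4 cells by a log2 fold change of -0.77 (adjusted p = 0.0185), a fold of 1.71.

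MMP2, gelatinase A, degrades denatured collagen and collagen IV of the basement membrane. Its probe set 201069_at read 3136, 3023 and 2419.6 in LHR+ cells and 6540.1, 7590.3 and 5939 in LHR- cells, which did not overlap, a 2.34-fold difference (log2 fold change -1.23 ± 0.22, adjusted p = 0.00397). It averaged 2854 ± 422 in LH1, 3425 ± 865 in LH4, 4092 ± 1326 in LH8 and 4721 ± 289.6 in LH20 cells, against 2859 ± 385 in LHR+ cells (SD, n = 3 each). The 3 arrays at 20 h read 4397, 4954 and 4813, all above LHR+ cells, with a log2 fold change of 0.73 ± 0.22 (adjusted p = 0.0355) that was not called. The other MMP2 probe sets, 1566678_at and 1566677_at, lay between 0.409 and 25.0 over the 18 arrays, correlated with 201069_at by r of 0.06 and 0.23, and were not called in any comparison.

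The membrane-type metalloproteinases are anchored at the cell surface, where MMP14 activates the proenzyme of MMP2 together with TIMP2. MMP14 was not called in any comparison on any of its 4 probe sets. Its probe set 160020_at read 56.3, 55.4 and 46.4 in LHR+ cells and 54.6, 59.1 and 70.5 in LHR- cells, and the groups overlapped. At 20 h it read 83.4, 85.0 and 57.8, above all 3 LHR+ arrays, with a log2 fold change of 0.49 (95% interval -0.07 to 1.06, adjusted p = 0.243). The other MMP14 probe sets lay between 1.97 and 45.0, in the range where the spread between replicates is wide, and their pairwise correlations over the 18 arrays ran from -0.08 to 0.42.

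MMP16, also called MT3-MMP, is a membrane-type enzyme that can activate MMP2 as well. It was not called in LHR+/LHR-, and its intensity was higher at each LH time from 4 h on. Probe set 223614_at read 552, 531 and 489.6 in LHR+ cells and 493, 634 and 482 in LHR- cells (log2 fold change -0.02, 95% interval -0.31 to 0.26). After 1 h of LH it read 466, 607 and 486 and overlapped with LHR+ cells, and after 4 h it read 746, 667 and 588, above all of them (log2 fold change 0.34, adjusted p = 0.222). After 8 h the values were 901, 929.6 and 855 (log2 fold change 0.77 ± 0.13, adjusted p = 0.00504, below the fold threshold). After 20 h they were 1299, 1223 and 1329, and MMP16 had risen 2.45-fold against LHR+ cells (log2 fold change 1.29 ± 0.13, adjusted p = 1.52e-05) and 2.41-fold against LHR- cells (1.27 ± 0.13, adjusted p = 1.24e-05). The arrays of 8 h overlapped neither with those of 4 h nor with those of 20 h, although neither step passed the fold threshold. The rise was seen on this probe set only, and the other 4 MMP16 probe sets lay between 1.48 and 77.9, were not called, and correlated with 223614_at by r of -0.46 to 0.25.

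**Figure D2:**
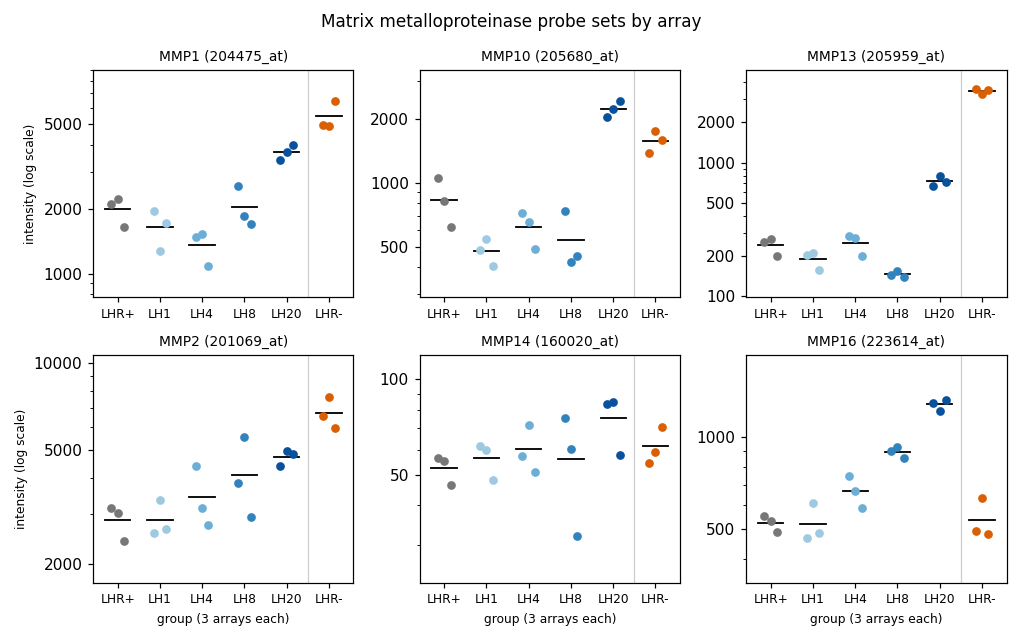
Intensity of 1 probe set per metalloproteinase on each array, in LHR+ cells, after 1, 4, 8 and 20 h of LH, and in LHR- cells at the right, with a bar at the mean of the 3 arrays and a log axis of its own for each panel. MMP13 lies at 202 to 269 in LHR+ and 3272 to 3547 in LHR- cells, MMP10 is highest at 20 h, and MMP16 increases at 4, 8 and 20 h.

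Of the inhibitors, TIMP3, which is bound to the extracellular matrix and also inhibits enzymes of the ADAM and ADAMTS families, differed most. Its probe set 201150_s_at read 165, 166 and 159 in LHR+ cells and 3075, 3238 and 3088 in LHR- cells, a 19.1-fold difference (log2 fold change -4.25 ± 0.08, adjusted p = 3.43e-12). Probe set 201148_s_at read 141, 134 and 172 in LHR+ and 2816, 2626 and 3072 in LHR- cells, and 201147_s_at read 92.6, 92.7 and 94.1 in LHR+ and 1793, 1952 and 1915 in LHR- cells. Probe set 201149_s_at, with lower values, read 32.1, 20.5 and 25.7 in LHR+ and 358, 454 and 423 in LHR- cells. The log2 fold changes of these 3 were -4.25, -4.32 and -3.94, which is 15.4-fold for 201149_s_at. With 16 in place of 1 added to each intensity the log2 fold change of this dim probe set was -3.35, and those of the other 3 were -4.13, -4.12 and -4.12. Over the 18 arrays the 4 correlated with each other by r of 0.961 to 0.995, a value set mainly by the gap between the LHR- arrays and the rest.

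TIMP3 remained low during LH. After 20 h it was lower than in LHR- cells on all 4 probe sets, with log2 fold changes of -4.79, -3.56, -3.93 and -3.94 for 201150_s_at, 201148_s_at, 201147_s_at and 201149_s_at (limma adjusted p of 2.07e-07 or below), and with 16 added the log2 fold change of 201149_s_at was -3.33. Within the LHR+ line, however, the probe sets went in different directions. At 8 h, 201150_s_at read 198, 206 and 215 (log2 fold change against LHR+ cells 0.34, adjusted p = 0.0423), and 201148_s_at read 272, 222 and 235 (0.70, adjusted p = 0.0064), so both lay above LHR+ cells. At 20 h, 201150_s_at read 121, 109 and 106, below every LHR+ array (log2 fold change -0.54 ± 0.08, adjusted p = 0.000412). At the same time 201148_s_at read 261, 242 and 218, above every LHR+ array (0.69 ± 0.13, adjusted p = 0.00146), while 201147_s_at differed by 0.40 (adjusted p = 0.0693) and 201149_s_at by 0.01 (adjusted p = 0.992). None of these differences reached a fold of 2. The difference between 201150_s_at and 201148_s_at on the same array, on the log2 scale, averaged -1.09 in LH20 cells, with a range of -1.14 to -1.04, and 0.14 in LHR+ cells, with a range of -0.11 to 0.31. This pair was chosen after its values were seen, so the difference of -1.23 between the groups is a description. These probe sets measure parts of transcripts of the same gene, and which parts is not given in the files used here.

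TIMP1, a secreted inhibitor of most soluble MMPs, read 4616, 4829 and 4590.0 in LHR+ cells and 6191, 6050.2 and 6929.9 in LHR- cells. These groups did not overlap, but the difference was 1.36-fold (log2 fold change -0.45 ± 0.08, adjusted p = 0.00383) and was not called. It averaged 4527 ± 51.6 at 1 h, 4599 ± 127 at 4 h and 4983 ± 247 at 8 h (SD, n = 3 each). At 20 h the values were 5584, 5846 and 6046, above LHR+ cells by 0.32 on the log2 scale (adjusted p = 0.014), and below all 3 LHR- arrays by a difference that did not pass the test (log2 fold change -0.13, 95% interval -0.31 to 0.04).

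TIMP2, which inhibits MMPs and also takes part in the activation of MMP2 at the cell surface, was not called in any comparison. Its 3 probe sets had log2 fold changes of -0.18, -0.10 and -0.10 in LHR+/LHR-, with overlapping arrays. At 4 h of LH the arrays of all 3 already lay above every LHR+ array. The log2 fold changes were 0.21 for 231579_s_at, 0.18 for 224560_at and 0.34 for 203167_at (limma adjusted p of 0.213 or above). At 8 h they were 0.33, 0.25 and 0.42, again without overlap (adjusted p = 0.0784, 0.117 and 0.103). At 20 h of LH all 3 lay above LHR+ cells, with 231579_s_at at 11056, 11690.2 and 12182 in LH20 and 8754, 8549 and 10142 in LHR+ cells (log2 fold change 0.35, adjusted p = 0.0172), and 224560_at differing by 0.30 (adjusted p = 0.0189). In LH20/LH8 these 2 differed by only 0.02 and 0.05 (adjusted p = 0.918 and 0.805). The third, 203167_at, read 1135, 1290.2 and 1405 in LH20, 601, 706 and 691 in LHR+ and 763, 647 and 738 in LHR- cells. Its difference was larger, 1.91-fold in LH20/LHR+ (log2 fold change 0.94 ± 0.13, adjusted p = 0.000182), and without the first LH20 array it was 1.02 and was called. Over the 18 arrays 231579_s_at and 224560_at correlated by r = 0.966 and 203167_at with either by 0.662 and 0.705. TIMP4, the remaining inhibitor, had a single probe set with intensities of 0.49 to 10.1 in all groups, which could not be followed at this signal and was not called.

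**Figure D3:**
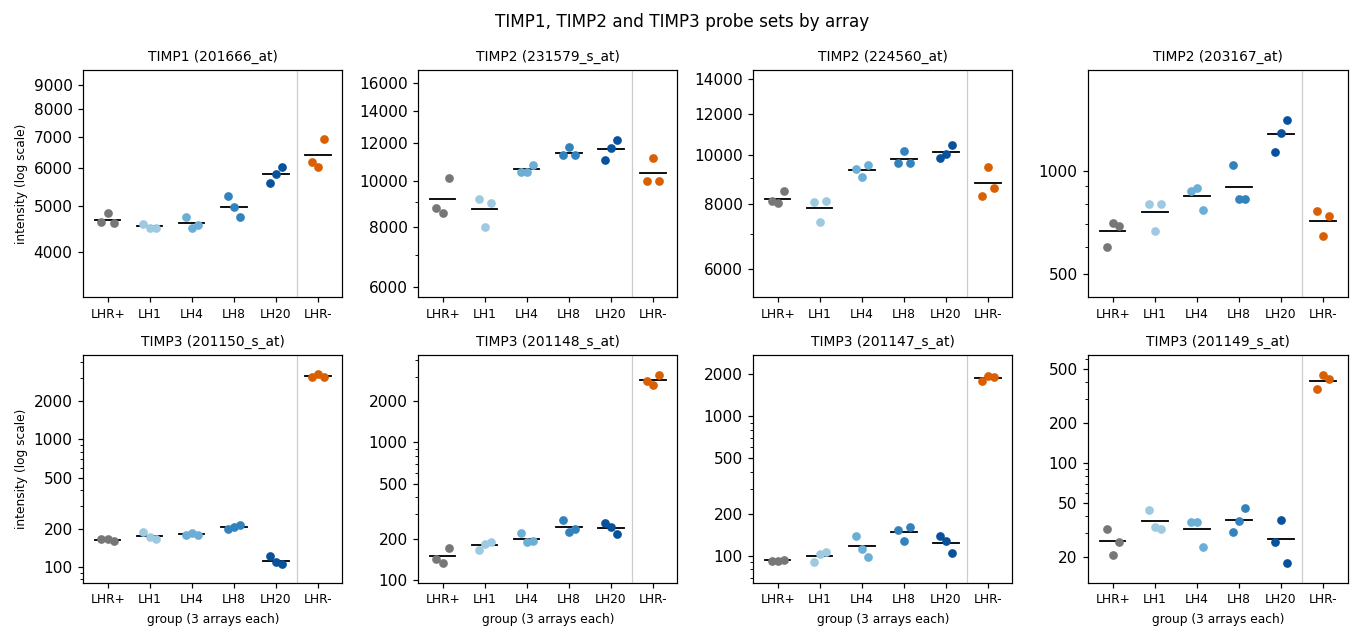
Intensity of the probe sets of TIMP1, TIMP2 and TIMP3 on each array, in LHR+ cells, after 1, 4, 8 and 20 h of LH, and in LHR- cells at the right, with a bar at the mean of the 3 arrays and a log axis of its own for each panel. All 4 TIMP3 panels have the LHR- arrays far above the others, and at 20 h 201150_s_at lies below LHR+ cells (106 to 121) while 201148_s_at lies above (218 to 261).

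**Figure D4:**
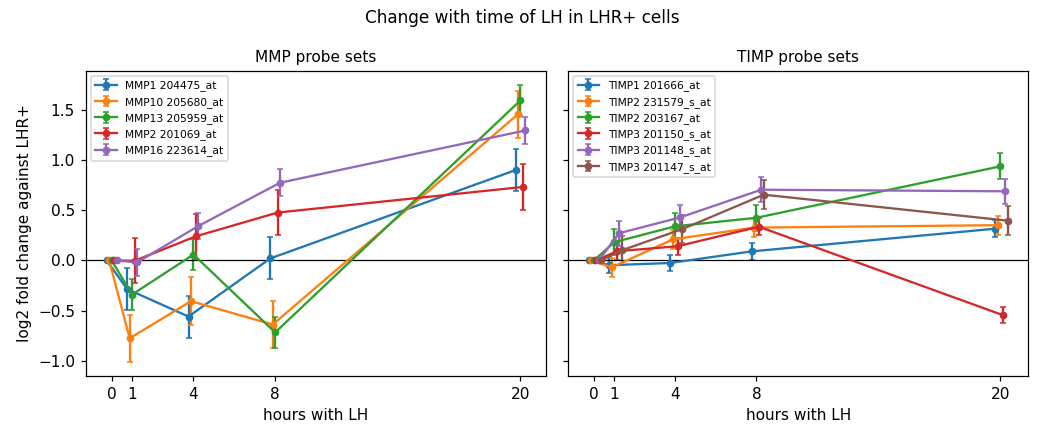
Log2 fold change against LHR+ cells, with its standard error, by hours with LH for 5 MMP probe sets (left) and 6 TIMP probe sets (right), where points of 1 time are set slightly apart and time 0 is LHR+ cells. MMP10 (2.09) and MMP13 (2.31) have their largest step between 8 and 20 h, MMP16 increases through 0.34, 0.77 and 1.29, and TIMP3 201150_s_at ends at -0.54 while 201148_s_at ends at 0.69.

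Set directly against LHR- cells, LH20 cells differed on 6 member probe sets, against 8.89% of all probe sets. MMP16 was the 1 called higher (4.84% of all probe sets), and MMP13 and the 4 probe sets of TIMP3 were the 5 called lower (4.06%). MMP1 and MMP2, called lower in LHR+ cells, had log2 fold changes of -0.54 (adjusted p = 0.0848) and -0.50 (adjusted p = 0.148) in LH20/LHR- and were not called. TIMP2 203167_at was higher in LH20 cells by 0.83 on the log2 scale (adjusted p = 0.000381), below the fold threshold.

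The genes whose intensities ran most like those of a member over the 18 arrays were found among 11914 genes brighter than the median probe set. The 18 arrays share their groups, so a high r is set largely by the group means. For MMP1 the nearest was another member, TIMP1 (r = 0.954), followed by COL1A2, a chain of collagen I (0.932). For MMP2 they were SPOCK1, a testican that belongs to the matrix proteoglycans (0.903), and LCN2, lipocalin-2 (0.892). MMP10 had KCNS3 and ARMCX3 (0.932 each), MMP13 had SLC22A2 (0.968) and the immunoproteasome subunit PSMB8 (0.965), MMP16 had IER5L (0.970) and ZNF432 (0.964), and TIMP3 had the calcium-binding protein CALB1 (0.980) and ABI3BP, a matrix protein (0.979).

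Other genes of the same system were described by 1 probe set per gene, and the share of all genes called in this way was 4.22% in LHR+/LHR- and 0.319%, 1.99%, 1.47% and 7.45% at 1, 4, 8 and 20 h of LH against LHR+ cells. Of 17 other MMPs 16 were measured, and none was called in LHR+/LHR- or at any LH time against LHR+ cells. MMP9, the other gelatinase, had group means of 21.2 to 30.9, and MMP3, the first stromelysin, of 3.27 to 10.3.

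Of 16 genes of plasminogen activation and of the proprotein convertases, which can activate MMPs, 14 were measured. In LHR+/LHR- the tissue-type plasminogen activator PLAT (144 ± 24.4 in LHR+ and 397 ± 77.6 in LHR- cells, log2 fold change -1.45) and the protease inhibitor SPINT1 (-1.43) fell, and none rose. At 4 h of LH the urokinase receptor PLAUR rose to 1622 ± 132 in LH4, against 709.9 ± 27.5 in LHR+ cells (1.19), and SPINT1 rose (1.21), while urokinase itself, PLAU, fell to 1964 ± 106, against 3942 ± 231 in LHR+ cells. At 20 h PLAT (1.41) and SPINT1 (1.37) were higher in LH20 than in LHR+ cells. No gene of the list was called at 1 or 8 h.

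All 14 membrane and matrix regulators of MMPs were measured. In LHR+/LHR- 3 fell and none rose, the testicans SPOCK3 (2.7 ± 1.45 in LHR+ and 182 ± 50.9 in LHR- cells) and SPOCK1 (log2 fold change -1.01), and the endocytic receptor LRP1, which clears proteases from the cell surface (-2.13). TFPI2, a secreted Kunitz-type inhibitor of plasmin and other serine proteases, rose at 4, 8 and 20 h, with means of 3496 ± 291, 4333 ± 499 and 3759 ± 157, against 697 ± 113 in LHR+ cells. Its log2 fold changes were 2.33, 2.64 and 2.44 (limma adjusted p of 3.9e-07 or below), and no other gene of the list was called at 4 or 8 h. At 20 h 4 rose and 1 fell. Besides TFPI2, LRP1 (2.07) and SPOCK3 (2.58) were higher in LH20 than in LHR+ cells, and CLDN1, a claudin of tight junctions, was lower (-2.10). The value of SPOCK3 starts from a mean of 2.7 in LHR+ cells, so it depends on the 1 added to each intensity.

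Transcription factors known to act on MMP promoters, were measured for 16 of 17 genes, and of these the AP-1 member FOSB was called at each LH time. FOSB rose to 479.7 ± 112 in LH1, against 9.61 ± 6.22 in LHR+ cells (log2 fold change 5.71, adjusted p = 2.61e-05), and FOS rose to 73.3 ± 10.9, against 5.76 ± 5.23 (3.72, adjusted p = 0.0066). The log2 fold change of FOSB was 4.16 at 4 h, 2.01 at 8 h and 2.53 at 20 h. FOSB and FOS start from LHR+ means of 9.61 and 5.76. The sizes of their changes thus depend on the 1 added to each intensity. FOSL1 fell to 678 ± 39.3 at 4 h, 661 ± 25.3 at 8 h and 279 ± 33.7 at 20 h, against 2244 ± 144 in LHR+ cells, with log2 fold changes of -1.73, -1.76 and -3.01. ETS2 rose at 4 h (1.13), and the ETS factors ETV4 (-2.84) and ETV5 (-1.15) fell at 20 h. None of the 16 was called in LHR+/LHR-.

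Of 23 matrix substrates 21 were measured. In LHR+/LHR- 6 fell, among them COL3A1 (log2 fold change -4.56), COL1A2 (1088 ± 75.9 in LHR+ and 7148 ± 47.1 in LHR- cells, -2.72) and tenascin-C, TNC (-2.38), and 1 rose, COL4A3 (1.01). No substrate was called at 1, 4 or 8 h. At 20 h 4 rose, led by the proteoglycan decorin, DCN (163 ± 39.0 in LH20 and 16.8 ± 4.04 in LHR+ cells, 3.20), COL1A2 (4179.8 ± 161 in LH20 cells, 1.94) and COL4A4 (1.81), and 2 fell, TNC (-1.12) and COL4A6 (-2.17, adjusted p = 0.0903). DCN is also on the list of markers of other cells given above. Of the 8 metalloproteinases of the ADAM and ADAMTS families that TIMP3 inhibits, all were measured and none was called in LHR+/LHR- or at 1, 4 or 8 h. At 20 h ADAM28 rose (2.12), and ADAMTS1 fell to 1463 ± 138 in LH20, against 4377 ± 139.6 in LHR+ cells (-1.58), as did ADAM33 (-1.34).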

How the data were processed

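RNA of 18 SKOV-3 cultures, described in the paper as independent replicates, was amplified as cDNA and hybridized by the authors to Affymetrix U133 Plus 2.0 arrays. The values used are the linear probe set intensities that the authors deposited. The sample labels name PLIER for their summarization and the paper names RMA, and versions and scaling are not given in the sources used here. Intensities of dim probe sets depend on the background step, which could change their folds. The annotation gave 41097 probe sets 1 symbol, 1801 several and 11777 none.

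The intensities were transformed as log2(value + 1) with no filter, and limma 3.58.1 (lmFit with 1 mean per group, eBayes) was fitted in R 4.3.3, with the data.table package (version 1.17.8), to all probe sets and 18 arrays. P was adjusted by Benjamini-Hochberg over all probe sets. The thresholds are the paper's. Its ANOVA and Mann-Whitney tests were replaced by limma. The smallest exact two-sided Mann-Whitney p for 3 against 3 arrays is 0.1, a limit that does not hold for ANOVA. The same model without eBayes, an ANOVA, was among the alternatives. The fit was tested on simulated data. A p-value measures the spread between these cultures only, and the number of arrays limits the precision.

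The members and the gene lists were chosen with earlier results of these data known. All member probe sets were described, and of each list at most 3 called genes per direction and comparison were named, those that moved most. MMP9 and MMP3 were named after their values were seen. Alternatives changed the pseudocount, normalization, filter, variance model, block, fitted arrays, unit and fold threshold. Plots were made in Python 3.11.15 (matplotlib 3.10.9).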

Additional observations from a re-analysis of the deposited data

Results flagged for a closer look

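Among the called values, 2 differences between LH times were taken up for a closer look because the effect of LH at 20 h differed from that at 8 h by a direct test. MMP10 averaged 2226 ± 199 in LH20, 538 ± 172 in LH8 and 829.7 ± 219 in LHR+ cells (SD, n = 3 each), and the difference between the effects was 2.09 on the log2 scale (SE 0.24, limma adjusted p = 8.38e-05), with all 3 LH20 arrays above all 3 LH8 arrays. MMP13 averaged 727 ± 68.2 in LH20, 146 ± 8.75 in LH8 and 242 ± 35.5 in LHR+ cells, and the difference was 2.31 (SE 0.16, limma adjusted p = 1.71e-06), again without overlap. Both effects are measured against the same LHR+ arrays, which cancel in the difference.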

How the results depend on the processing

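The 18 called values kept their direction and their side of the threshold in all 498 recomputed values, over 10 alternative settings and 18 fits that each left out 1 array. Part of this agreement was fixed in advance. Dropping the fold threshold cannot remove a call. Leaving out an array of a group that is not compared does not change the log2 fold change. The counts of member probe sets called were 7 in LHR+/LHR-, 0 at 1, 4 and 8 h of LH, 3 in LH20/LHR+, 6 in LH20/LHR- and 2 over the steps between LH times. With the replicate number as a replicate block they were 7, 0, 0, 0, 3, 6 and 2 again. Same-numbered arrays of different groups deviated from their group means with correlations of -0.0254 to 0.0471, and differently numbered ones of -0.0618 to 0.0646. These correlations run over all probe sets, dim ones included. Whether the numbers pair the arrays for single genes was not tested. With 1 probe set per gene the counts were 4 in LHR+/LHR- and 3 in LH20/LHR-, because 10 genes stand for 24 probe sets. With no fold threshold they were 1 at 4 h, 6 at 8 h, 12 in LH20/LHR+ and 8 over the steps. Leaving out 1 array gave 7 to 8 in LHR+/LHR- (MMP10 added), 3 to 4 in LH20/LHR+ (TIMP2 203167_at added), 6 to 6 in LH20/LHR-, 2 to 3 over the steps (MMP1 added) and 0 to 0 at 1, 4 and 8 h. Over all probe sets, adding 16 to each intensity changed the counts called to 1102 (1835 with 1 added) in LHR+/LHR-, 650 (1032) at 4 h, 407 (831) at 8 h and 2405 (3859) at 20 h. Testing only probe sets brighter than the median gave 1033, 665, 459 and 2455 in the same comparisons. Fitting only the arrays compared gave 173 (263) at 1 h and 489 (831) at 8 h, and no fold threshold 5666, 430, 3266, 3133 and 12557 in LHR+/LHR- and at 1, 4, 8 and 20 h. TIMP4 and most of the lower probe sets of MMP2, MMP14 and MMP16 were too dim for small changes to be detectable. In LHR+/LHR- the SE was 0.26 for MMP14 160020_at and 0.25 for MMP16 207012_at, against 0.24 for MMP10.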
